A study of Mus musculus with 2 samples.

Results

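Perineuronal nets are lattices of extracellular matrix around the cell bodies and dendrites of certain neurons, many of them interneurons that make parvalbumin. The gene group described here holds 10 of the 21911 protein-coding genes of the annotation, taken from a list of components of these nets and of the looser matrix that precedes them in the young brain. It contains the lecticans Acan, Bcan, Ncan and Vcan, the link proteins Hapln1 and Hapln4, the tenascins Tnr and Tnc, the receptor phosphatase Ptprz1 and the hyaluronan synthase Has3. All 10 were found in GENCODE vM21 on the mouse build mm10. Each gene was followed over its body plus 20 kb on each side, and a peak whose midpoint lay within 1 kb of any annotated transcription start was called a promoter peak, every other one distal.

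The data are DNase-seq of frontal cortex from male mice of the strain B6CASTF1/J, an F1 cross, at an age of 10 days. There is 1 group with 2 libraries, numbered as biological replicates 1 and 2, and no second condition. A note in the labels of both libraries mentions 3 males without saying whether they were pooled, and both name the same donor entry, so the spread between the libraries may be partly technical. DNase-seq cuts open chromatin in nuclei and counts the cuts. A hotspot is a stretch with more cuts than its surroundings, a peak is a narrow maximum of cut density, and a footprint is a short run of bases inside open chromatin that is cut less than its neighbours.

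As background, lecticans are large proteoglycans that carry chondroitin sulfate chains. They bind hyaluronan, a sugar polymer spun out at the cell surface, and link proteins clamp that bond, while tenascin-R ties the other ends of lecticans together. Aggrecan, made from Acan, is the lectican most typical of mature nets, and nets condense during postnatal development as the critical periods of cortical plasticity close.

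Replicate 1 had 39608 peaks in the main list and replicate 2 had 45915. The lowest peak-wise maximum of −log10 false discovery rate (FDR) was 3.01 in replicate 1 and 3.00 in replicate 2, which matches a threshold of 0.001. Peak densities, which the authors had normalised to read depth, were whole multiples, to within 0.05 of a step at low densities, of 0.01083 in replicate 1 and of 0.006586 in replicate 2, so replicate 2 was 1.64 times as deep. The absolute depth is not known. The tissue label was set against marker genes. Of 8 cortex and forebrain regulators, 6 had promoter peaks in both libraries and all 8 had one in replicate 2. None of 8 hindbrain and spinal cord regulators had one. All 5 pan-neuronal genes and 4 of 5 oligodendrocyte precursor genes had one in both libraries. The count was 0 of 5 for genes of myelinating oligodendrocytes, 2 of 6 for astrocyte genes and 1 of 5 for microglial genes. It was 0 of 4 for endothelial genes and 2 of 5 for genes of mural cells and fibroblasts. Across all protein-coding genes the share was 54.9%, and sets this small give only a rough reading beside it. Among 6 genes of the interneurons that many nets surround, Gad2, Sox6 and Kcnc1 had promoter peaks in both libraries, while Pvalb, Gad1 and Lhx6 had none in either. In whole tissue, a weak peak from few cells cannot be told apart from a weak opening in many.

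A promoter peak was found in both libraries at 7 of the 10 matrix genes, namely Bcan, Ncan, Vcan, Hapln1, Tnr, Tnc and Ptprz1. Across all protein-coding genes this share was 54.9%. In replicate 1 alone the count was 8, since Has3 joined, against 57.6% of all genes, and in replicate 2 alone it was 7 against 56.7%. Acan and Hapln4 had no promoter peak in either library. A distal peak in both libraries was found at 4 of the 10 genes, Bcan, Ncan, Tnr and Tnc, and at 35.0% of all genes. With 2 libraries of 1 group no test of these shares was possible, and both counts stand near the background. At least 1 shared peak of any class was found at 8 of the 10 genes and at 73.7% of all genes. In the looser list Has3 was open in both libraries, which gave 8 genes against 61.0% of all. Both lists of the authors' separate, read-derived run also gave 8, against 57.6% of all genes in the smaller and 60.3% in the larger.

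The promoters that were open were mostly weak ones. Over the 12027 genes whose promoters had peaks in both libraries, the strongest promoter peak had a median density of 4.30 in replicate 1 and 2.80 in replicate 2, with lower quartiles of 2.37 and 1.57. Ncan, at 4.51 and 3.15, was the one matrix gene above the median in both libraries, higher than 52.1% and 55.6% of those genes. Bcan, at 3.12 and 2.10, lay between the lower quartile and the median. Vcan lay below the lower quartile in replicate 1 at 2.24 and above it in replicate 2 at 1.69, and so did Tnc at 1.99 and 1.95. Ptprz1, at 2.32 and 1.14, lay below the lower quartile in both libraries. Tnr, at 1.43 and 0.981, was higher than only 9.54% and 9.90% of the genes, and Hapln1, at 0.975 and 0.619, than 3.26% and 2.69%.

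**Figure D1:**
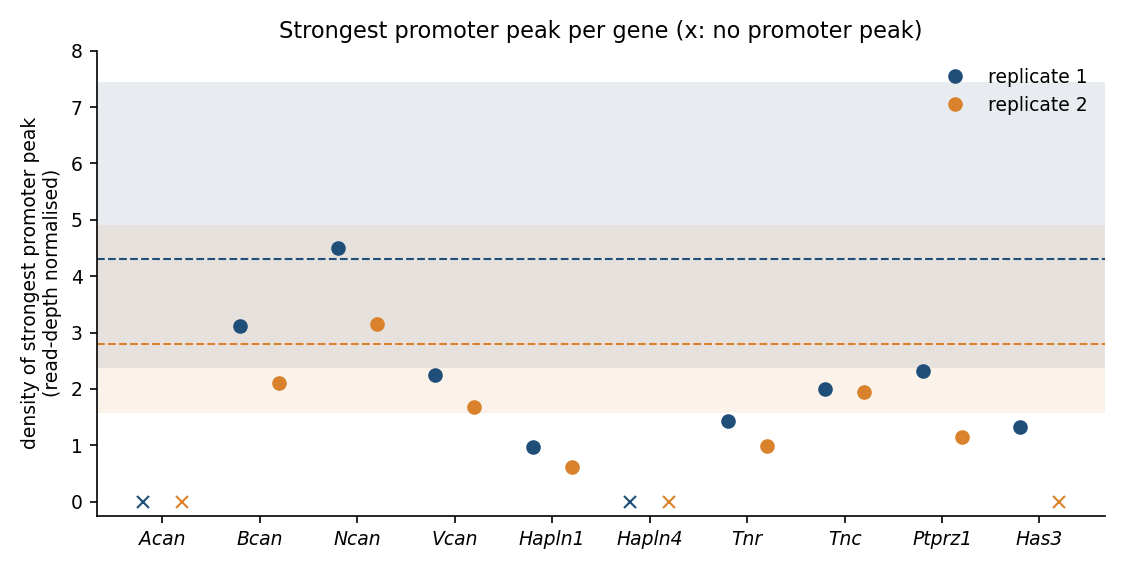
Density of the strongest promoter peak of each gene (vertical axis, normalised to read depth, no unit) in replicate 1 (blue) and replicate 2 (orange), with crosses at 0 where the list held no promoter peak. Dashed lines are the medians over the 12027 genes whose promoters had peaks in both libraries, 4.30 and 2.80, and shaded bands run from the lower to the upper quartile, so Ncan is seen above both lines and Hapln1 and Tnr far below.

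Together the 10 spans held 36 peaks in replicate 1 and 37 in replicate 2, of which 31 overlapped between the libraries by at least 1 bp. Of the 31, 14 lay at promoters of the genes themselves, 5 at promoters of neighbouring or nested genes and 12 were distal. The shared part was 86.1% of the replicate 1 peaks (Wilson 95% interval 71.3 to 93.9) and 83.8% of the replicate 2 peaks (68.9 to 92.3), beside 80.1% and 69.6% over all peaks of each library. These intervals cover counting error only and treat peaks as independent. Since Tnr alone gave 13 peaks in each library and Ncan 7, they may be too narrow. Per 10 kb of span the shared peaks ran from 1.03 at Ncan and 0.569 at Bcan through 0.393 at Vcan, 0.246 at Tnr, 0.184 at Has3, 0.157 at Tnc, 0.0894 at Hapln1 and 0.0460 at Ptprz1 to 0 at Acan and Hapln4. The median over the 10 genes was 0.171 and over all protein-coding genes 0.213. Ncan stood above 96.4% of all genes in this rate, with 2 of its 7 shared peaks belonging to the promoters of other genes.

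**Figure D2:**
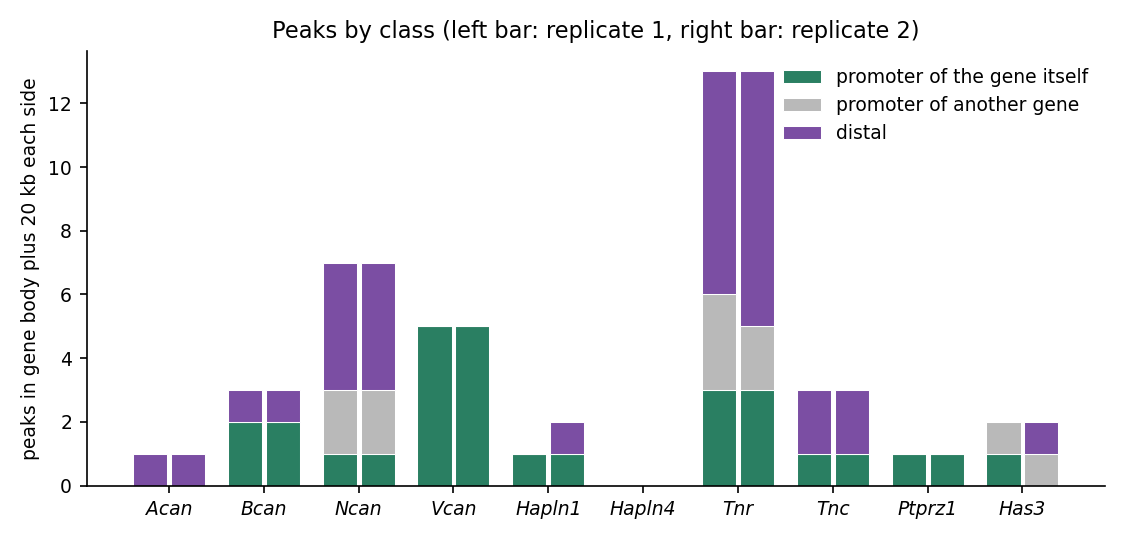
Number of peaks in the gene body plus 20 kb on each side (vertical axis) for each gene, with replicate 1 as the left bar and replicate 2 as the right bar, split into promoter of the gene itself (green), promoter of another gene (grey) and distal (purple). Tnr has 13 peaks in each library, most of them distal, all 5 Vcan peaks are at its own promoters, and Hapln4 has none.

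Ncan encodes neurocan, a lectican of the young brain (ENSMUSG00000002341.8, chr8:70093085-70120873, minus strand). It was the gene of the group with the strongest promoter and the densest surroundings. Its single annotated start lay inside a peak of density 4.51 in replicate 1 and 3.15 in replicate 2, with a hotspot whose highest −log10 FDR was 24.8 and 20.7. An intronic element 1992 bp downstream of the start reached 2.63 and 2.85. Further upstream, 3 distal elements followed each other at 7738, 8608 and 9015 bp from the start, with densities of 2.20, 3.50 and 1.56 in replicate 1 and 1.23, 2.77 and 1.21 in replicate 2. They lie nearer to another gene, 1445 to 2722 bp from the start of Nr2c2ap, so their position alone does not assign them to Ncan. The promoter of Nr2c2ap itself had 1.82 and 1.30, and that of Rfxank, which encodes a subunit of a factor that acts on immune genes, had 11.3 and 8.10, above every peak of the matrix genes' own promoters.

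The start of Ncan and its intronic element are shown because they are the strongest own promoter and the strongest distal element in the body of a member. Sequences here and below are the reference sequence from RefSeq's GRCm38.p6 genome, printed 5′ to 3′ on the strand of the gene, with mm10 coordinates and with exonic untranslated bases left out. Capitals mark bases inside footprints of both libraries.
Ncan promoter, chr8:70120874-70121000: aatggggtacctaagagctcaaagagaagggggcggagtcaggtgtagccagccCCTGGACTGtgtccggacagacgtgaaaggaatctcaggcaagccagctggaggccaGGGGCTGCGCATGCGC
Ncan intron, chr8:70118761-70118980: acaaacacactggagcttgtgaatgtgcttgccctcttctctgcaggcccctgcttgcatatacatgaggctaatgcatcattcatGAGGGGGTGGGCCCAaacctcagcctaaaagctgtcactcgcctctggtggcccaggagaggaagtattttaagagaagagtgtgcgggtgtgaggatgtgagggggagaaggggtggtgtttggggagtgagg
Footprints of both libraries covered 25 of the 127 promoter bases, and the last printed ones reached the base before the transcription start. This footprint held the whole of the palindrome that the factor NRF1 binds, which is the last 10 printed bases, from position 118 on. The motif was present in 1 of the 14 shared own-promoter windows of the group and in 1.88% of all 17010 shared promoter windows of 300 bp. In the intron the shared footprint covered 15 of 220 bases and matched none of the motifs searched.

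Bcan encodes brevican, the smallest lectican (ENSMUSG00000004892.13, chr3:87987531-88000230, minus strand). It had 3 shared peaks, and the strongest was distal, 420 bp past the 3′ end of the gene, with a density of 4.02 in replicate 1 and 3.10 in replicate 2. This was above 82.9% and 87.6% of all peaks of the libraries, and its hotspot reached a −log10 FDR of 19.9 and 19.7. An intronic element 1280 bp inside the gene, within 1 kb of an internal protein-coding start, had 3.12 and 2.10. The peak just upstream of the outermost start, at 104 bp in replicate 1 and 73 bp in replicate 2, was weaker than both, at 1.96 and 1.39. At Bcan, accordingly, the 5′ start was the least open of its 3 elements in either library. The 2 stronger elements are printed to show what their footprints cover.
Bcan downstream of the 3′ end, chr3:87986971-87987270: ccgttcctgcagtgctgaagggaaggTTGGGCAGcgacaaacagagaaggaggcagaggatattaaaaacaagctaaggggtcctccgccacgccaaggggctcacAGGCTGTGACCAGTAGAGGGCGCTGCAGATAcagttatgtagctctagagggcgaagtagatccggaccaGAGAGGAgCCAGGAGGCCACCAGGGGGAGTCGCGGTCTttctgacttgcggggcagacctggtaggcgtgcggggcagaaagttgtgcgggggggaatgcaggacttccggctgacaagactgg
Bcan intron, chr3:87998861-87999038: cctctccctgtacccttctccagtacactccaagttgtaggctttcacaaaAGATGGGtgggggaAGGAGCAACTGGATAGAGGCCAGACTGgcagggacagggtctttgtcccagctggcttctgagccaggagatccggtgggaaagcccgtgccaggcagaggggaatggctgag
The downstream element was footprinted over 76 of 300 bases in both libraries. One of these footprinted stretches contained CCAGTAGAGGGC, at position 116. These bases fit the core of the motif of the insulator protein CTCF, written as CCA, AG and GGC with 2 free bases in each gap. This form of the core was chosen after the sequence had been seen. The form searched first asks for an A after GGC and did not match here. It matched 1 of the group's 12 distal windows, at Tnc, outside footprints of both libraries, beside 8.15% of all shared distal windows. The shorter core occurred in 16.0% of all 14712 shared distal windows and in 2 of the 12 of this gene group. In the intron 34 of 178 bases were footprinted in both libraries.

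Vcan encodes versican, a lectican found in many tissues and abundant in the juvenile brain matrix (ENSMUSG00000021614.16, chr13:89655312-89742509, minus strand). All of its 5 shared peaks lay within the first 3028 bp of the gene and counted as promoter peaks. The strongest, 2048 bp inside and 64 bp from an internal protein-coding start, had a density of 2.24 in replicate 1 and 1.69 in replicate 2. The peak over the outermost starts had 0.877 and 0.685. The element at 3028 bp, 17 bp from the start of the noncoding RNA gene Gm4117, which overlaps this end of Vcan, had 1.98 and 1.19, and the remaining peaks had 0.899 and 0.791 in replicate 1 and 0.731 and 0.652 in replicate 2. One hotspot of 2574 bp in replicate 1 and 2494 bp in replicate 2 joined the 4 inner peaks. Its highest −log10 FDR was 49.6 and 47.0, the highest of any promoter hotspot of the group. By the separate per-base FDR within 1 kb of the starts, Vcan reached 14.08 in replicate 1 and Ncan 25.45. In replicate 2 Vcan reached 20.07 and Ncan 17.07, so by this score Vcan led in replicate 2 only. Why the scores differ was not tested. The peak at the internal start held more footprints than any other peak of Vcan, 8 in replicate 1 and 9 in replicate 2.

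The authors also deposited peaks from a separate run that started from the reads of each library. For nearly all peaks the densities of the runs were alike, with a median ratio of second to first run of 1.02 in each library and an upper end of the central 95% at 1.11. At the internal promoter of Vcan the second run gave 5.01 in replicate 1 and 3.42 in replicate 2, which is 2.23 and 2.03 times the first run, above 99.99% of all peaks in each library. The Bcan intron was next among the matrix genes, at 1.12 and 1.22 times. With the second run, the strongest promoter of Vcan would exceed that of Ncan, which had 4.58 and 3.18 there. What made the runs differ at these sites was not tested.

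**Figure D3:**
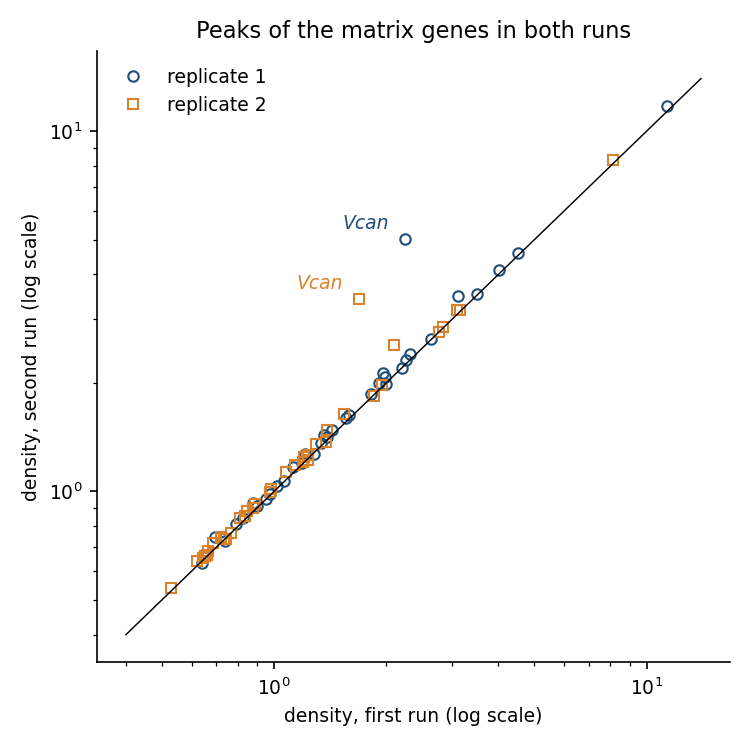
Density of each peak of the 10 genes in the first run (horizontal axis, log scale) and in the second, read-derived run (vertical axis, log scale), for replicate 1 (circles) and replicate 2 (squares), with the line of equality. Nearly all points follow the line, and the internal promoter of Vcan stands above it in both libraries, at 5.01 against 2.24 and at 3.42 against 1.69.

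Acan encodes aggrecan (ENSMUSG00000030607.7, chr7:79053483-79115099, plus strand), and it had no open promoter by these lists. Within 1 kb of its starts, 0 of 4002 bases had an FDR under 0.05 in replicate 1 and 17 did in replicate 2, in a hotspot 808 bp from the start with a −log10 FDR of 1.42. Away from the promoter there were weak elements. One in an intron, 27468 bp downstream of the start, was a peak in replicate 1 (density 0.823) and in the looser list of replicate 2 (0.527), with hotspots of 5.28 and 3.78. The other, 8558 bp past the end and inside the neighbouring gene Hapln3, was a peak in replicate 2 (0.975) and in the looser list of replicate 1 (0.682), with hotspots of 7.69 in replicate 2 and 3.00 in replicate 1. Neither was in the main list of both libraries, so Acan counts with 0 shared peaks.

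The link proteins lie beside the lecticans in the genome. Hapln1 and Vcan are neighbours on chromosome 13, Hapln4 and Ncan on chromosome 8, Hapln3 and Acan on chromosome 7, and Hapln2 and Bcan on chromosome 3. Of these 4 lecticans 3 had promoter peaks in both libraries, and of the 4 link protein genes Hapln1 alone did. Vcan and Hapln1 thus both had one, Acan and Hapln3 both lacked one, and in the other two pairs only the lectican had one in both libraries. Hapln2 had one in replicate 2 only (0.988). The background share for this state was 54.9%. With 4 genes of each kind, neither the counts nor the pairing can be told apart from that share. A contrast between lecticans and link proteins was not tested.

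Hapln1, the link protein most often named in nets (ENSMUSG00000021613.9, chr13:89539796-89611652, plus strand), had the weakest shared promoter of the group. Its peak lay 565 bp upstream of the start in replicate 1 and 490 bp in replicate 2, at 0.975 and 0.619. An intronic site at chr13:89548350-89548452 was a peak in replicate 2 (0.665) and in the looser list of replicate 1 (0.866), and was a hotspot in both, at 5.03 and 4.80. Hapln4, which encodes a link protein that pairs with brevican at some synapses (ENSMUSG00000007594.10, chr8:70083457-70090862, plus strand), had no peak in either library, and none of the 2688 bases within 1 kb of its starts had an FDR under 0.05. No peak in either library is a state it shared with 21.4% of protein-coding genes. The nearest peak to its start was the intronic element of Ncan, 35424 bp away in replicate 1. Its only shared hotspot, chr8:70087866-70088145, had a −log10 FDR of 2.23 in replicate 1 and 2.08 in replicate 2.

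Tnr encodes tenascin-R (ENSMUSG00000015829.13, chr1:159523769-159931729, plus strand), and this gene of 408.0 kb held the most elements, 11 shared peaks, none of them strong. Of these, 3 were at its own promoters, 2 at starts of the noncoding RNA gene Gm10530 inside it and 6 were distal and intronic. At the outermost start the density was 1.43 in replicate 1 and 0.981 in replicate 2, and 455 bp further in it was 1.21 and 0.810. An internal protein-coding start 250094 bp downstream had 1.13 and 0.843. The strongest distal element, 147212 bp inside the gene and also within Gm10530, had 1.92 and 1.85, so it exceeded the promoter in both libraries. By the mean of the density percentiles in both libraries, next came an element at 137622 bp with 1.36 and 1.54, and one at 193461 bp with 1.39 and 1.38. An element at 162872 bp, with 1.59 and 0.876, was above both of these in replicate 1 and below them in replicate 2. The last 3 distal elements, with this one, lay between 0.693 and 1.59 in replicate 1 and between 0.645 and 1.07 in replicate 2. The promoter, the site just inside the gene and the strongest intronic element are shown, since the first pair hold motif matches that footprints of both libraries cover wholly or in part.
Tnr promoter, chr1:159523601-159523768: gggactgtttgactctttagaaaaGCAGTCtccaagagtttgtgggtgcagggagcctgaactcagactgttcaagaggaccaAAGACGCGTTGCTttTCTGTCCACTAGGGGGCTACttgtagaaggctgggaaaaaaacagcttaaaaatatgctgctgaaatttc
Tnr first intron, chr1:159524216-159524326: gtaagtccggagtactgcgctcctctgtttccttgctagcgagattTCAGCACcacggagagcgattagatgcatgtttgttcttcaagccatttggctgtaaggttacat
Tnr distal intronic element, chr1:159670841-159671120: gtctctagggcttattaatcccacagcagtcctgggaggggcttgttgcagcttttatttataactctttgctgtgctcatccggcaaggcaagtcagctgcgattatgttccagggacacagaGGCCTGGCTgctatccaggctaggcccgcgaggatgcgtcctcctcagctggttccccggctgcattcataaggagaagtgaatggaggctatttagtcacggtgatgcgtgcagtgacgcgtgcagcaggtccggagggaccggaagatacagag
In the Tnr promoter, 39 of 168 bases were inside footprints of both libraries, and one footprint held CCACTAGGGGGC, a match to the added CTCF core, at position 104. That core occurred in 4.77% of all shared promoter windows. In the intronic stretch the footprint of 7 bases lay within TTCAGCACC, at position 46, which is one part of the site of REST, a repressor of neuronal genes outside neurons. TTCAGCACC occurred in 0.582% of all shared promoter windows and in no other of the group's own promoter or distal windows. The distal element had 9 of 280 bases in footprints of both libraries. Such matches describe letters and do not show binding.

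**Figure D4:**
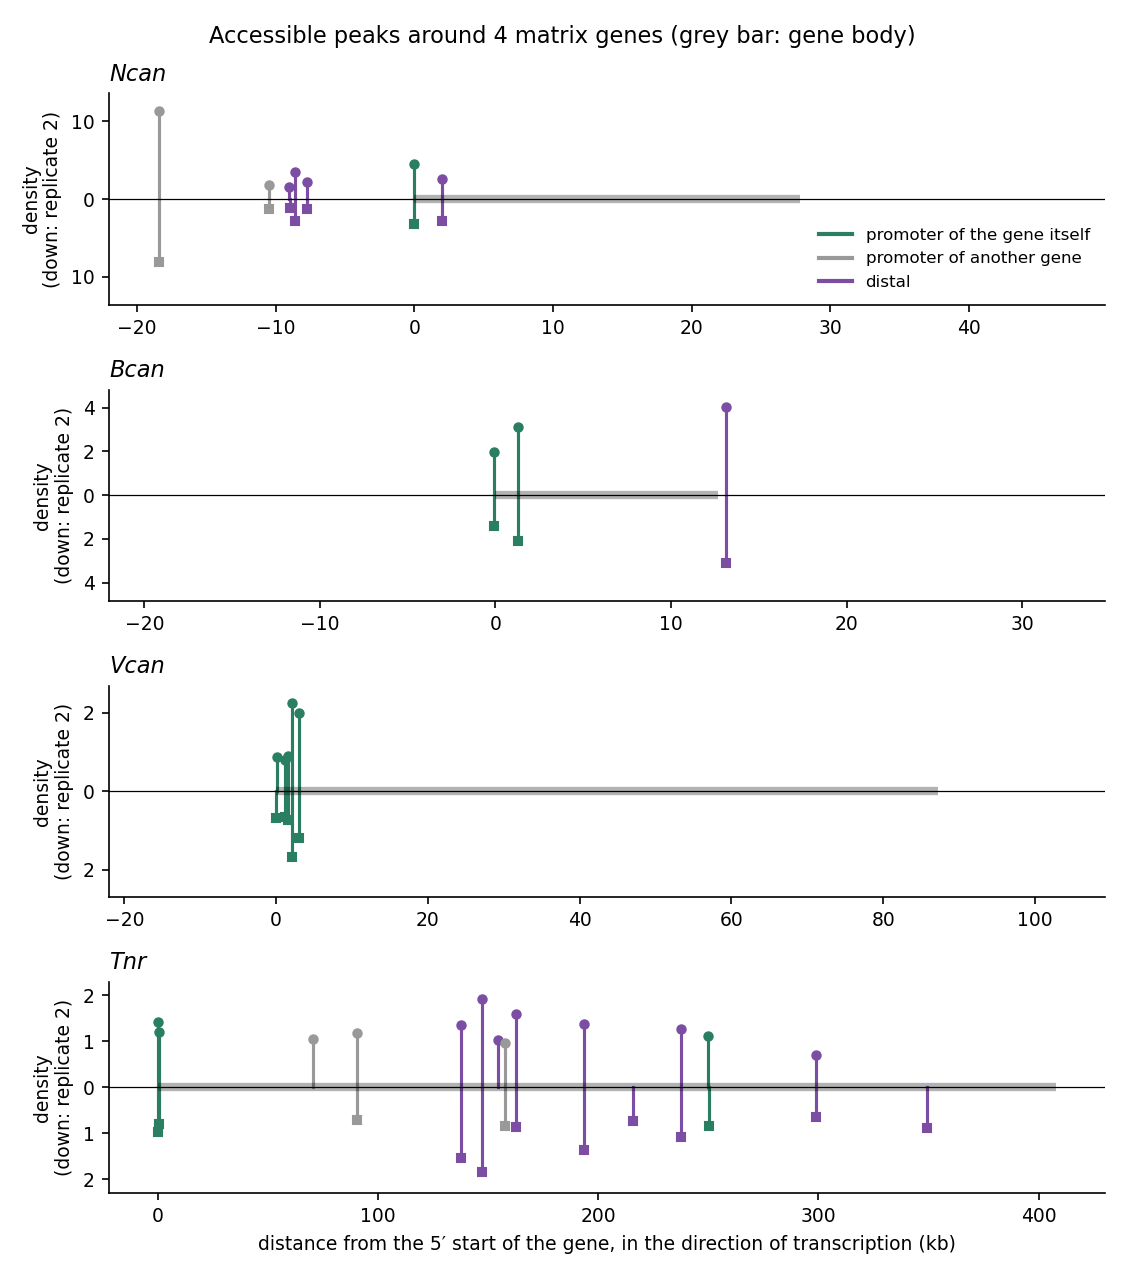
Peaks of Ncan, Bcan, Vcan and Tnr by distance from the 5′ start in the direction of transcription (horizontal axis, kb), with density upward for replicate 1 (circles) and downward for replicate 2 (squares), green at promoters of the gene itself, grey at promoters of other genes and purple where distal. Grey bars along 0 are gene bodies, and the heights show Bcan's strongest element past its 3′ end (4.02 and 3.10), Vcan's peaks crowded into the first 3028 bp and Tnr's low peaks spread through the gene.

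Tnc encodes tenascin-C, a tenascin of developing tissue that astrocytes make after injury (ENSMUSG00000028364.15, chr4:63959785-64047015, minus strand). Its promoter peak lay 96 bp upstream of the start in replicate 1 and 106 bp in replicate 2, at 1.99 and 1.95, with a hotspot of 9.91 and 21.0. The noncoding RNA gene 8030451A03Rik overlaps this start. A weak distal peak 11515 bp past the end of the gene had 0.639 and 0.659. Single-library peaks were seen beside it in replicate 1 (0.737) and in an intron in replicate 2 (0.527). Ptprz1 encodes a receptor tyrosine phosphatase that carries chondroitin sulfate and binds tenascins (ENSMUSG00000068748.7, chr6:22875502-23052916, plus strand). In its span of 217.4 kb there was 1 peak, at the promoter, with a density of 2.32 in replicate 1 and 1.14 in replicate 2 and a hotspot of 18.4 and 9.04. Both promoters are printed because each has the same motif inside a footprint of both libraries.
Tnc promoter, chr4:64047016-64047240: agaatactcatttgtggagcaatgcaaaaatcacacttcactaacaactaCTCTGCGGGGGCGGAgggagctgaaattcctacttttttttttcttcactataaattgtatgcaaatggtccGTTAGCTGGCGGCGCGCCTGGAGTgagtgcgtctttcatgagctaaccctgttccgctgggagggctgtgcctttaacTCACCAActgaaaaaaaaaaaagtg
Ptprz1 promoter, chr6:22875221-22875501: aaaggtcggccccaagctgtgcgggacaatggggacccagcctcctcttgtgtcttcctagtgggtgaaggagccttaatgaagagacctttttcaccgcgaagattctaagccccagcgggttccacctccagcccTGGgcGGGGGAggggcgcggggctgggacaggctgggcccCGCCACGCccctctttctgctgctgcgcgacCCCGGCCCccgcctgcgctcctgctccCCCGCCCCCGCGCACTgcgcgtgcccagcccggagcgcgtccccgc
The motif is GCGGGGGCG, a form of the site of EGR factors, which neuronal activity induces. It lay at position 55 of the Tnc promoter and, as its reverse complement CGCCCCCGC, at position 238 of the Ptprz1 promoter, and all 9 bases were footprinted in both libraries. In each promoter it overlaps a GGGCGG of the SP and KLF factors, so the letters do not separate these families. GCGGGGGCG or GCGTGGGCG was present in 2 of the group's 14 own-promoter windows and in 7.00% of all shared promoter windows. The GC content of the printed stretch was 45.3% at Tnc and 70.5% at Ptprz1.

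Has3 encodes one of the enzymes that spin hyaluronan (ENSMUSG00000031910.14, chr8:106870242-106884566, plus strand). A promoter peak 12 bp from one of its starts was in the main list of replicate 1 (1.33). In replicate 2 the site was under a hotspot of 3.56 and in the looser list at 0.626. A distal site past the 3′ end was a peak in replicate 2 (0.764) and in the looser list of replicate 1 (0.780). The one shared peak of its span was the promoter of the neighbouring gene Utp4, at 2.26 and 1.23. The other hyaluronan synthase genes, Has1 and Has2, had no promoter peak in either library.

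The libraries were set against each other at the 31 shared peaks. Over 31104 peaks paired 1 to 1 the median log2 density ratio of replicate 2 to replicate 1 was −0.48, and the central 95% of ratios ran from −0.61 to 0.79 around that median. Relative to it, 17 of the 31 peaks were above 0 and 0 lay outside the central 95%, with a median of 0.07. The highest were the Tnr element at 137622 bp (0.66) and the Ncan intron (0.59), and the lowest was the Ptprz1 promoter (−0.54). Tnc was above 0 at its promoter (0.45) and its distal peak (0.52), and 5 of the 6 distal elements of Tnr were above 0. Of the 11 peaks found in 1 library only, all 11 lay under a hotspot of the other library and 8 under a peak of its looser list. For all unpartnered peaks the share under a hotspot of the other library was 87.3% for replicate 1 and 71.5% for replicate 2. Their share under a looser-list peak was not worked out, so the 8 cannot be called high or low.

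**Figure D5:**
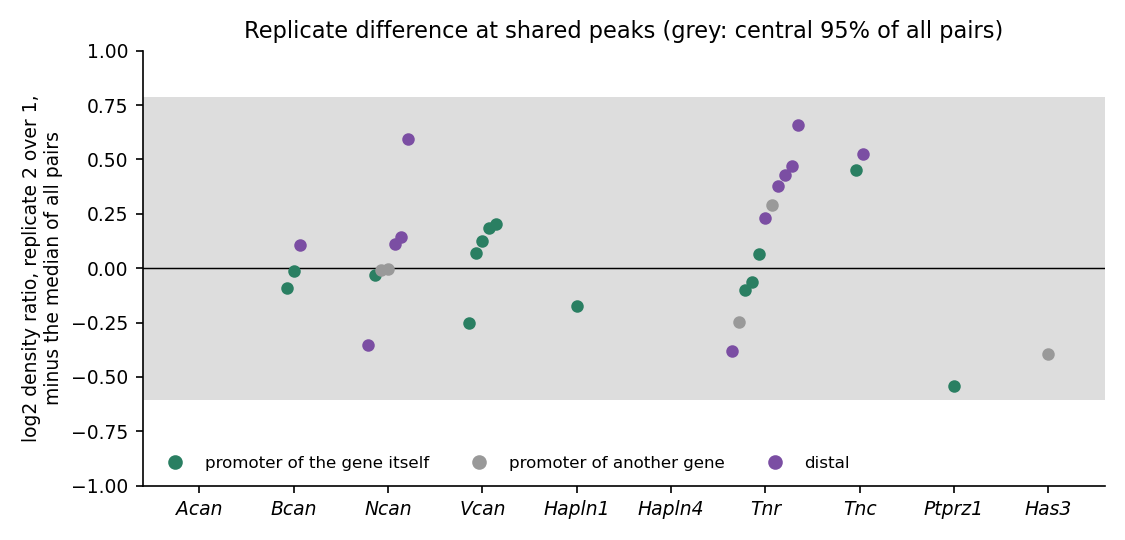
Log2 ratio of peak density, replicate 2 over replicate 1, minus the median of all 31104 pairs (vertical axis), for the 31 shared peaks of each gene, coloured by class. The grey band is the central 95% of all pairs, −0.61 to 0.79, and every point lies inside it, from −0.54 at Ptprz1 to 0.66 at Tnr.

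Hotspots and footprints were counted in the same spans. The spans held 60 hotspots found in both libraries, of 71 in replicate 1, and 78 such footprints, of 161 footprints in replicate 1. The shared parts of all hotspots and of all footprints were not worked out, so these counts cannot be called high or low. Tnr had 19 of the shared footprints, Ncan 17, Vcan 11 and Bcan 10, while Acan and Hapln1 had 3 each and Hapln4 1. Among promoter footprints, Vcan led with 10 in both libraries, followed by Bcan with 6, and Tnr and Ptprz1 with 5 each. These 4 genes also had the widest promoter windows, 7776 to 8902 bp, because they have the most annotated starts. Ncan, with 1 start and a window of 2001 bp, had 3. The counts were not adjusted for window size. Acan, Hapln4 and Has3 had 0.

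Motifs were counted in windows of 300 bp on both strands. At own promoters an E-box of the neuronal bHLH type (CAGCTG or CAGATG) was present in 7 of 14 windows, beside 26.6% of all shared promoter windows, at Tnr, Vcan, Bcan and Ncan. In distal windows it was in 5 of 12, all at Tnr, beside 52.2% of all. The ETS motif CCGGAAG, common at housekeeping promoters, was in 0 of the 14 promoter windows and in 15.0% of all, and in 2 of the 12 distal windows beside 2.70%. GGGCGG was in 10 of 14 promoter windows, beside 64.5%, and in 3 of 12 distal windows, beside 16.3%. In the 12 distal windows one arm of the nuclear factor I site, TTGGCA, was in 5, at Tnr, Tnc and Ncan, beside 28.2% of all distal windows, and a SOX motif (ACAAAG or ACAATG) was in 1, at Tnr, beside 30.8%. At promoters TTGGCA was in 1 of 14 windows, beside 12% of all, and the SOX motif in 2, beside 16.6%. Windows of one gene are not independent, since Vcan alone gives 5 of the promoter windows and Tnr 6 of the distal ones.

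A list of 62 related genes was taken by role, and 36 of them, 58.1%, had a promoter peak in both libraries, near the 54.9% of all genes. Within a role, genes are ordered by the mean density percentile of the promoter peak in both libraries. The enzymes that build chondroitin sulfate chains were open throughout: 11 of 11 had such a peak, led by Chpf at 12.04 in replicate 1 and 7.06 in replicate 2, B3galt6 at 7.31 and 3.99, and B3gat3 at 5.59 and 3.28. Of the sulfotransferases and epimerases that modify the chains, 8 of 10 had one, led by Chst12 (13.2 and 8.58), Dsel (4.16 and 2.30) and Chst11 (2.46 and 1.32), while Chst14 had no peak in its span. Each of the 3 leading genes of chain synthesis thus had a stronger promoter than any of the 10 matrix genes in both main lists.

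Among the genes that cut, protect or read the matrix, the shares lay nearer the 54.9% of all protein-coding genes. Of the proteases and hyaluronidases 6 of 14 had a promoter peak in both libraries, led by Cemip2 (5.47 and 3.70), Plat (4.72 and 3.90), which encodes tissue plasminogen activator, and Hyal2 (2.78 and 1.87). Plat was above Cemip2 in replicate 2. Mmp3 had no peak in its span. Of the inhibitors Timp2 (3.04 and 1.82) and Timp3 (1.72 and 1.08) had one, Timp4 had one in replicate 2 only, and Timp1 had no peak. Of the receptors and bound ligands 6 of 13 had one. Ptprs, a receptor for chondroitin sulfate chains, led with 11.2 and 8.75, followed by Nptx2 (2.63 and 1.91) and Ptprd (2.58 and 1.09), which in replicate 2 was below Nrp1 (1.98 and 1.19). Cd44, a hyaluronan receptor, and Otx2, a homeoprotein that nets bind, had no peak. Among other proteoglycans and tenascins 3 of 6 had one, Cspg5 (4.19 and 2.48), Ptprg (3.66 and 2.13) and Gpc5 (3.46 and 1.73), and among the other link proteins and hyaluronan synthases 0 of 4.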

How the data were processed

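Both libraries of 1 group (frontal cortex, males, 10 days) were used. Cleavage densities are a signal that the authors deposited per peak, normalised to read depth, with main and looser lists from filtered alignments and a smaller and a larger list from a separate run on the reads. The authors deposited hotspots with their highest −log10 FDR, per the file headers. Per-base FDR values under 0.05 are a p-value type score that the authors deposited, as is the 0.01 given for every footprint, which is a threshold and not a value per footprint. Further deposited footprint lists of replicate 2 hold positions only, with no value. Files use mm10, per the labels. For the aligner and the peak caller, neither name nor version is given in the sources used here. The mice are F1 hybrids, so alignment to the C57BL/6J sequence may lose reads of the other parental allele. This was not examined.

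Spans were intersected with GENCODE vM21 genes and starts in Python 3.11.15 (numpy 2.4.6, pandas 2.3.3). Bases were read with pysam from GRCm38.p6, which was indexed with samtools 1.23.1. Per-base FDR values were intersected with peaks and promoter windows in bedtools 2.31.1. Shared means an overlap of at least 1 bp. A promoter is 1 kb on each side of any annotated start. The counting was tested on simulated peaks. The absolute depth per sample is unknown. No test between groups was possible. All 10 genes are named, with each shared promoter peak and up to 3 shared distal peaks per gene. From the related list, up to 3 genes per role with the strongest promoters and those without any peak are named. Further genes were named after seeing their values. The genes and lists were chosen with earlier results of these data known. Alternatives were other peak lists, overlaps, promoter windows, start sets and spans, and each library alone.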

Additional observations from a re-analysis of the deposited data

How the results depend on the processing

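The number of matrix genes whose promoters were open in both libraries (7) ranged from 6 to 8 over all alternatives, and that of related genes (36) from 35 to 47. The 47 came from the larger read-derived list, in which 60.3% of all genes had such a peak. Counts of distal elements depended more on the list and the span. The 12 shared distal peaks became 31 with the looser list, 28 with the larger read-derived list and 7 in gene bodies alone, and ranged from 15 to 18 in single libraries. The 4 genes with a shared distal peak became 9 with the looser list, 7 with either read-derived list, 7 with a flank of 50 kb and 2 in gene bodies alone, and numbered from 5 to 7 in single libraries. The matching share of all genes, 35.0%, was worked out for the main lists and spans only. The counts of the other settings therefore cannot be set beside it or called high. The median of 0.171 shared peaks per 10 kb became 0.413 with the looser list, 0.168 with the stricter list, 0.257 and 0.354 with the smaller and larger read-derived lists, 0.168 with 50% reciprocal overlap, 0.183 and 0.170 with flanks of 10 and 50 kb and 0 in gene bodies alone, and was 0.263 in each single library. The median over all protein-coding genes was likewise worked out for the main lists and spans only. The 78 shared footprints became 41 in gene bodies alone and 47 with the shorter positions-only list of replicate 2, beside 161 to 194 in single libraries. The 60 shared hotspots became 39 in gene bodies alone. Shorter spans and longer lists change these counts by construction. For the overlap setting and the flanks the cause was not tested. The CTCF core was added after the sequences were seen. The weak sites of Acan and Has3 passed the main threshold in 1 library only, the Acan intron and the Has3 promoter in the shallower one, and a part of depth in this was not tested. No paired analysis was possible because there is 1 group.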

Other observations

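Several sites near these genes were hotspots in both libraries without being peaks of the main list in either. Hotspots without such a peak are common in these data. Replicate 1 had 76696 hotspots and 39608 main-list peaks, and replicate 2 had 91160 and 45915. Ptprz1, whose promoter was its only peak, had one in the body at chr6:22887989-22888286 in replicate 1, with a −log10 FDR of 2.18 and of 1.52 in replicate 2. Bcan had one upstream at chr3:88002290-88003015, at 5.29 and 3.01, and Tnc one in the gene at chr4:63990225-63990537, at 3.16 and 2.67. Vcan had one at chr13:89669271-89669781, far from its open 5′ end, at 2.56 and 2.14. Hapln1 had one at chr13:89603459-89603714, at 1.75 and 2.54. No explanation of these weak sites was tested.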
